A study of Mus musculus with 4 samples.

Results

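The genes described here are 7 whose RNA is typical of the 2-cell mouse embryo: Tcstv1, Tcstv3, Zscan4a, Zscan4c, Zscan4d, Zscan4f and Zfp352. They were chosen by symbol from the table of raw counts, all 7 were found there, and they are 7 of 55453 genes. Messenger RNA had been sequenced from wild-type (control) and Parp12 knockdown oocytes, 2 libraries each, all taken directly from the ovary and all at the germinal vesicle stage, the prophase arrest before meiotic maturation. Parp12 encodes an enzyme that attaches ADP-ribose to its targets. The series asks what reducing it does to the oocyte transcriptome; the strain and age of the mice, any pooling of oocytes and the way Parp12 was knocked down are not given in these sources. The labels name no separate animal or culture for each replicate, so p-values here measure the spread between these libraries alone, which may be technical.

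The 2-cell stage is when the mouse embryo's own genome is first transcribed on a large scale, and the genes that define this burst are mostly silent in other cells. The Zscan4 genes encode proteins with a SCAN domain and zinc fingers that act in telomere maintenance and mark both late 2-cell embryos and a rare 2-cell-like state of embryonic stem cells. Tcstv1 and Tcstv3 belong to a 2-cell-specific multi-copy family that has also been tied to telomere length in stem cells, and Zfp352 encodes a zinc finger protein of early cleavage embryos. A fully grown oocyte is transcriptionally quiet and carries stored maternal RNA, so reads from these genes in an oocyte show RNA present before fertilization.

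The Zscan4 and Tcstv genes are members of tandem families, and how far a read can tell the copies apart bears on their values. The 4 Zscan4 genes lie on chromosome 7 of mm10 (GRCm38): Zscan4a from 10794242 to 10799057 on the minus strand, Zscan4c from 11005745 to 11010547 on the plus strand, Zscan4d from 11161374 to 11166159 on the minus strand and Zscan4f from 11397915 to 11402318 on the plus strand. Zscan4a is annotated as a pseudogene and the other 3 as protein-coding. Tcstv1 (119893388 to 119894785, minus strand) and Tcstv3 (120316878 to 120318178, plus strand) are protein-coding genes of chromosome 13. Zfp352 is a protein-coding gene of chromosome 4, from 90218820 to 90225702 on the plus strand. No other row of the table overlapped any of the 7 on either strand.

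Over their coding sequence Zscan4c and Zscan4f differed at 6 of 1518 bases (99.6% identity), whereas Zscan4d differed from each of them at 35 bases (97.7%). Zscan4-ps1, a further copy that GENCODE lists as protein-coding and RefSeq as a pseudogene, differed from Zscan4c and from Zscan4f at 31 bases and from Zscan4d at 33. The following 120 coding bases run from base 646 to base 765 of each coding sequence and are the stretch of that length where these 4 copies differ most. They are shown because they hold some of the letters that separate a Zscan4d read from a Zscan4c read. Capitals mark the 12 positions where the 4 copies are not all alike. The sequences are from the GENCODE transcripts (GRCm38), at chr7:11009121-11009240, plus strand for Zscan4c, chr7:11162677-11162796, minus strand for Zscan4d, chr7:11401314-11401433, plus strand for Zscan4f and chr7:11066196-11066315, minus strand for Zscan4-ps1.
Zscan4c: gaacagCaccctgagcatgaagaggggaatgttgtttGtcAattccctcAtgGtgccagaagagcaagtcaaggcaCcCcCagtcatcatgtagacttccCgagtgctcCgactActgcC
Zscan4d: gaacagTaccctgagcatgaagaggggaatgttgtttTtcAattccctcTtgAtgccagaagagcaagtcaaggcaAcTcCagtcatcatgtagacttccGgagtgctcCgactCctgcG
Zscan4f: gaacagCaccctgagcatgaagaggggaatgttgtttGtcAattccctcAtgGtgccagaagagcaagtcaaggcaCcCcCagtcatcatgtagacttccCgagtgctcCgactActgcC
Zscan4-ps1: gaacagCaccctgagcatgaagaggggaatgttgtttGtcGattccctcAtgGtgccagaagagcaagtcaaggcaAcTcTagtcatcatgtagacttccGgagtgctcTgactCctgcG
In this stretch Zscan4c and Zscan4f read the same at every position, so reads inside it cannot be divided between them.

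Tcstv1 and Tcstv3 differed at 28 of 507 aligned coding bases (94.5% identity). The 120 coding bases where they differ most run from base 385 to base 504, at chr13:119893591-119893710, minus strand for Tcstv1 and chr13:120317951-120318070, plus strand for Tcstv3, and capitals mark the 14 differing positions.
Tcstv1: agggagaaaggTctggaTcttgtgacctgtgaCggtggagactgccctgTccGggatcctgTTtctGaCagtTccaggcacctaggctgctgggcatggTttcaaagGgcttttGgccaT
Tcstv3: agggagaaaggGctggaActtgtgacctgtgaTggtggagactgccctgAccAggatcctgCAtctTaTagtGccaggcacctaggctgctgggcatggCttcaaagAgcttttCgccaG
The differences here lie close together, so that a read across this stretch meets several of them.

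Each annotated transcript of a gene was cut into all windows of 50, 100 and 150 bases, and a window was called unique if it occurred in no other annotated gene on either strand, as the read length was not known. For Zscan4d 50.4%, 70.4% and 87.0% of windows were unique at the 3 lengths, and for Zscan4-ps1 51.6%, 76.6% and 87.4%. For Zscan4c the shares were 14.5%, 27.2% and 39.0%, and for Zscan4f 13.2%, 19.4% and 22.6%. Zscan4a lay between them, with 36.4%, 60.9% and 74.9%. Tcstv1 (85.0%, 96.4% and 100%), Tcstv3 (68.6%, 92.2% and 100%) and Zfp352 (92.9%, 99.4% and 100%) were far easier to tell from all other genes. The treatment of reads that align to several places was not known either, so the split of counts among Zscan4 copies is uncertain, above all for Zscan4c and Zscan4f.

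**Figure D1:**
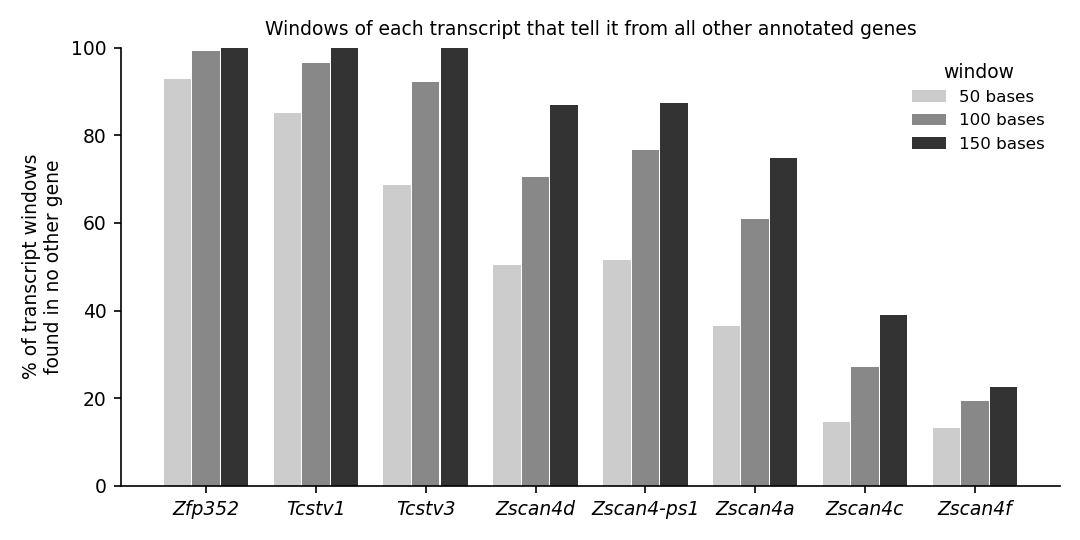
Share of all windows of 50, 100 or 150 bases in a gene's annotated transcripts that occur in no other annotated gene (vertical axis, percent), for the 7 genes and Zscan4-ps1. Zfp352 and the Tcstv genes stand at 100% with windows of 150 bases, while Zscan4c reaches 39.0% and Zscan4f 22.6%.

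The start regions of the Zscan4 genes are about as alike as their coding sequence. RefSeq promoter entries (GRCm38.p6, from 250 bases before to 50 after the start) were found for 4 of the 7 members, Zscan4c, Zscan4d, Zscan4f and Zfp352; Tcstv1, Tcstv3 and Zscan4a had none. Over these entries Zscan4c and Zscan4f differed at 2 of 277 aligned bases, Zscan4c and Zscan4d at 8 of 289, and Zscan4d and Zscan4f at 7 of 266. The 250 bases before the start of Zscan4c (chr7:11005495-11005744, plus strand) and of Zscan4d (chr7:11166149-11166398, minus strand) are printed because the 2 genes had unequal counts below. Capitals mark the motif TATAAA, searched on both strands.
Zscan4c promoter: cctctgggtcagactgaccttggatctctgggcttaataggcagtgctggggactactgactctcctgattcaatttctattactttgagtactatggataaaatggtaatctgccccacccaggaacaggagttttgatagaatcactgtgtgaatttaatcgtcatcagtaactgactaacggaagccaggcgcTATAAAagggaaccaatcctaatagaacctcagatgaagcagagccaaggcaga
Zscan4d promoter: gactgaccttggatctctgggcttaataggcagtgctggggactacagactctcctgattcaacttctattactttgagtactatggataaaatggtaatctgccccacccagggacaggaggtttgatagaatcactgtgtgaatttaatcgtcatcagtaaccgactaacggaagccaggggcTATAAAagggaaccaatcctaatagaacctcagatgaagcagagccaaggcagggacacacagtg
All 3 Zscan4 promoters held TATAAA once on the gene's strand, starting 54 bases before the RefSeq start in Zscan4c, 65 in Zscan4d and 31 in Zscan4f, and these letters were not in the window of Zfp352. The bases directly after the motif read the same in all 3, so the distances differ with the placing of the RefSeq start. Of 32851 RefSeq promoters cut to the same 250 bases, 12.4% held the motif on either strand and 7.59% on the gene's strand. A match of letters is a description of the window and was not tied to the counts.

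The libraries held from 35805122 to 45230773 counts, so that a count of 0, read as up to 3 counts, still allowed between 0.0663 and 0.0838 CPM (counts per 1000000 counts of the library). Such limits cover counting error only, since PCR copies are not independent molecules. Parp12 itself had 14279 and 9419 counts in control libraries and 32 and 86 in the knockdowns, as the labels say. All 14 oocyte markers, among them Gdf9 and Zp3, had counts in every library and summed to between 31610 and 34544 CPM. Of 16 granulosa and cumulus markers, 9 had counts, and Foxl2, Amh, Amhr2, Inhba, Inhbb, Fst and Krt18 were at 0 in all 4 libraries. The granulosa and cumulus list summed to 490.8 and 451.2 CPM in control libraries and to 409.5 and 472.7 CPM in the knockdowns, most of it from Serpine2. The 12 markers of stroma, theca, vessel and blood summed to 102.8 and 107.4 CPM in control libraries against 99.0 and 93.4 in the knockdowns, nearly all of it from Pecam1, with Col1a2 and Cdh5 at 0 throughout. Of this list 4 genes passed the filter on low counts and 0 were called (background 0.0063%). All 4 had a log2 fold change below 0 (median -1.39), beside 7864 of all 15868 genes tested. Pecam1 was at -0.08 and Dcn at -0.38, while Cyp11a1 and Star were at -2.98 and -2.40. The steroid-making markers of this list had few counts and did not all move alike. Cyp17a1 had 0 and 0 counts in control libraries against 0 and 27 in the knockdowns. Cyp11a1 and Star were lower in both knockdown libraries than in both controls, as were 16.8% of all genes tested. Cyp11a1 had 70 and 70 counts against 11 and 5 (unadjusted p 0.0449, adjusted p 0.835 by edgeR), and Star had 40 and 135 against 10 and 20 (adjusted p 0.835 by edgeR). At an unadjusted p under 0.05 by edgeR, 2.57% of all genes tested were lower in the knockdown. The part of these markers in the values below was not tested. In bulk libraries fewer cells with an RNA and less RNA per cell cannot be told apart.

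The 7 genes spanned the whole range from well expressed to undetected. Levels between genes are compared per length, as CPM per kb of counted exon, over all 4 libraries. Tcstv1 had 34.7 ± 3.90 CPM per kb (SD, n = 4), rank 1673 among the 21358 genes with a count, and Tcstv3 had 17.6 ± 6.37 CPM per kb, rank 3128. Both lay above the median of the 15868 genes that passed the filter on low counts, which was 3.28 CPM per kb. Zscan4d followed with 1.57 ± 0.369 CPM per kb (SD, n = 4), rank 9876. Zscan4c had 0.210 ± 0.218, Zscan4f 0.0686 ± 0.137 and Zscan4a 0.0412 ± 0.0824 CPM per kb (SD, n = 4), and Zfp352 had 0 counts in every library.

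In that order Tcstv1 (30.1 to 38.7 CPM per kb over the 4 libraries), Tcstv3 (10.6 to 25.9), Zscan4d (1.13 to 2.02) and Zscan4c (0 to 0.515) had ranges that did not overlap. Zscan4c, Zscan4f (0 to 0.274) and Zscan4a (0 to 0.165) overlapped with each other and with Zfp352 at 0. The order among the last 4 genes was therefore not resolved beyond the spread of the libraries.

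**Figure D2:**
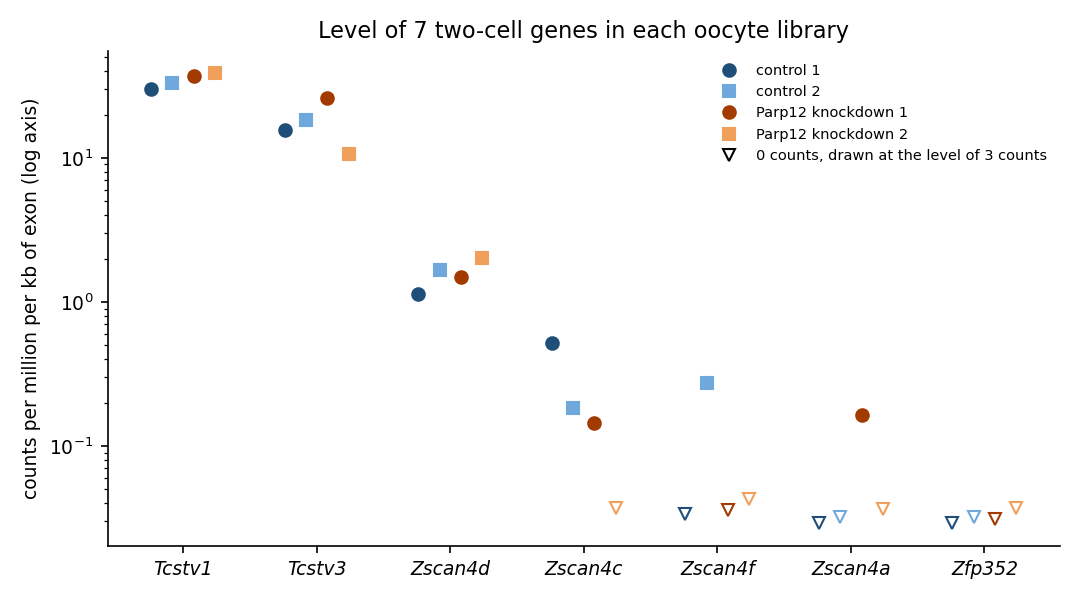
Level of each gene in each library, in CPM per kb of exon on a log axis, with circles for replicate 1 and squares for replicate 2 (blue control, orange Parp12 knockdown). Open triangles are libraries with 0 counts, drawn at the level of 3 counts; Zfp352 has only triangles, and Tcstv1 lies between 30.1 and 38.7.

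Tcstv1 was the most abundant member in every library, with 1904 and 1892 counts in control libraries against 2211 and 1936 in knockdown libraries, or 42.1 and 46.2 CPM against 51.9 and 54.1 CPM. Both knockdown libraries were above both controls, and the groups did not overlap. The means were 44.2 ± 2.91 CPM in control libraries and 53.0 ± 1.51 CPM in knockdown libraries (SD, n = 2). Its fitted log2 fold change of 0.26 had an SE of 0.17 and a 95% interval from -0.11 to 0.64. In edgeR's quasi-likelihood test with Benjamini-Hochberg adjustment the p was 0.868 after adjustment, so the difference did not pass. The interval runs from 0.924-fold to 1.56-fold and leaves out a 2-fold change in either direction. Among all genes tested, 18% also had both knockdown libraries above both controls, so the order of the 4 libraries is a frequent one.

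Tcstv3 had 551 and 584 counts in control libraries against 859 and 297 in knockdown libraries. Its levels were 12.2 and 14.3 CPM in control libraries and 20.2 and 8.29 CPM in the knockdowns. The 2 knockdown libraries were the highest and the lowest of the 4, with both controls between them. The means were 13.2 ± 1.47 CPM and 14.2 ± 8.40 CPM (SD, n = 2), and edgeR's log2 fold change was 0.16 (SE 0.40, 95% interval -0.70 to 1.02; adjusted p 0.972 by edgeR). The sign of this value rested on a single library, since it was -0.67 without knockdown replicate 1 and 0.61 without knockdown replicate 2.

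The share of the pair's counts that fell to Tcstv3 was 22.4% (95% Wilson interval 20.8% to 24.1%) and 23.6% (22.0% to 25.3%) in the controls. It was 28.0% (26.4% to 29.6%) in knockdown replicate 1 and 13.3% (12.0% to 14.8%) in knockdown replicate 2. The controls agreed within counting error and the knockdowns fell on either side of them. Their sum, which does not depend on how reads were divided between the 2 genes, was 57.4 ± 4.39 CPM in control libraries and 67.2 ± 6.89 CPM in knockdown libraries (SD, n = 2). It leaves out further copies, so it can still depend on reads shared with them. With windows of 50 bases, 11.8% of those of Tcstv1 and 19.0% of those of Tcstv3 also occurred in the copy Gm21818. With windows of 150 bases all were unique. For the sum the fitted log2 fold change of 0.24 (SE 0.16) had a 95% interval from -0.11 to 0.58 and did not pass (adjusted p 0.871, edgeR).

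Zscan4d, the best expressed Zscan4 member, had 116 and 155 counts in control libraries against 144 and 164 in knockdown libraries. These were 2.56 and 3.79 CPM against 3.38 and 4.58 CPM, and the groups overlapped. The means were 3.18 ± 0.864 and 3.98 ± 0.847 CPM (SD, n = 2). Its fitted log2 fold change was 0.32 (SE 0.64, 95% interval -1.06 to 1.69; adjusted p 0.967 by edgeR), an interval that runs from 0.481-fold to 3.24-fold. Changes within that span are not excluded.

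Zscan4c had 53 and 17 counts in control libraries against 14 and 0 in knockdown libraries. Its levels were 1.17 and 0.415 CPM in the controls, 0.329 CPM in knockdown replicate 1 and at most 0.0838 CPM in knockdown replicate 2. Both knockdown libraries were below both controls, as for 16.8% of all genes tested, and the lowest control was close to the highest knockdown. Fitted as a log2 fold change the difference was -2.17 (SE 1.71, 95% interval -5.83 to 1.49; adjusted p 0.902 by edgeR), an interval that runs from 0.0176-fold to 2.81-fold. The fitted value rests on few counts, with 1 library at 0, and sets no bound. DESeq2 gave a log2 fold change of -2.27 and limma-voom -3.27. The control libraries, where it was higher, were enough for the gene to pass the filter on low counts. The knockdown libraries alone were not.

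Zscan4a and Zscan4f were each seen in 1 library only. Zscan4a had 16 counts in knockdown replicate 1 (0.376 CPM) and 0 in the other 3 libraries. Zscan4f had 22 counts in control replicate 2 (0.537 CPM) and 0 in the other 3. Neither passed the filter on low counts, so neither was tested. Zfp352, which is the easiest of the members to tell from other genes, had 0 counts in all 4 libraries, which allowed at most 0.0663 to 0.0838 CPM in each.

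None of the 4 members that could be tested was called, and 1 of all 15868 tested genes was (0.0063%), Parp12. At an unadjusted p under 0.05 by edgeR the count of members was also 0, against 2.94% of all genes higher and 2.57% lower in the knockdown. DESeq2 called 0 members after adjustment, against 1.43% of the genes it tested. It gave Tcstv1 an unadjusted p of 0.0475 (higher), and at that limit of 0.05 it had 5.3% of all its genes higher and 4.87% lower. Limma-voom called 0 genes, and at an unadjusted p under 0.05 it had 0 members, against 2.36% of all genes higher and 2.34% lower. Of the 4 log2 fold changes 3 were above 0, with a median of 0.21, beside 8004 of all 15868 above 0 with a median of 0.00. The value below 0 was that of Zscan4c, which passed the filter through its control libraries. The members of a family share sequence and position, and the 4 values are not independent of each other.

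**Figure D3:**
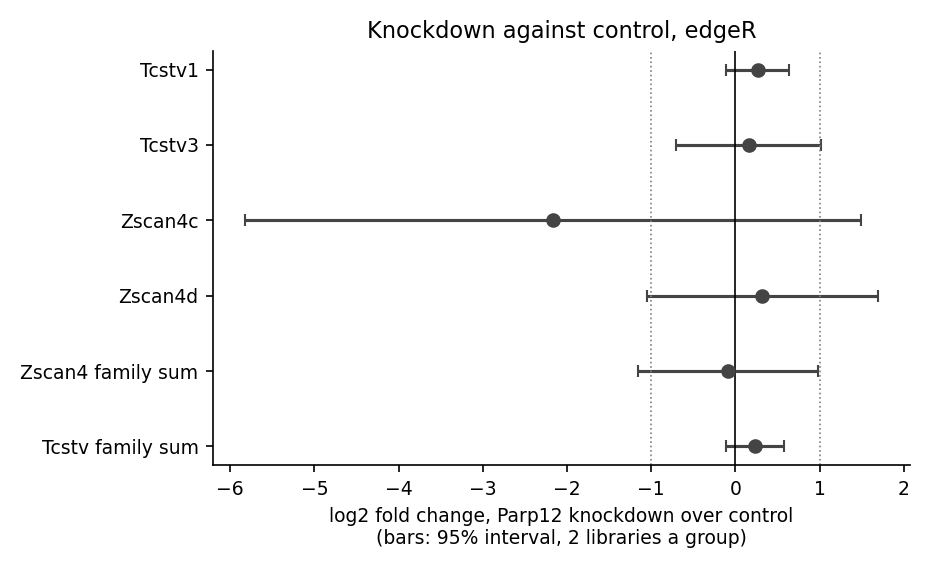
Log2 fold change of Parp12 knockdown over control (horizontal axis) for the 4 tested genes and for the sums of the Zscan4 and Tcstv rows; points are edgeR estimates, bars are 95% intervals from 2 libraries a group, and dotted lines mark 2-fold. All 6 intervals cross 0, and those of Tcstv1 and the Tcstv sum stay within 2-fold.

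Read as a whole family, Zscan4 RNA was present in every oocyte library, with few counts. Any reads left out because they match several copies are missing from the family sum too, so it may understate the level. The table has 9 Zscan4 rows, of which 6 had counts and 3 (Zscan4b, Zscan4e and Zscan4-ps3) had none. The 9 rows summed to 241 and 457 counts in control libraries against 242 and 356 in knockdown libraries, or 5.33 and 11.2 CPM against 5.68 and 9.94 CPM. In each group 1 library was about as low as the other group's low one, and the groups overlapped. The means were 8.25 ± 4.13 and 7.81 ± 3.01 CPM (SD, n = 2), with a log2 fold change of -0.09 (SE 0.50, 95% interval -1.16 to 0.98; adjusted p 0.988 by edgeR). Its sign was not stable, at 0.51 without control replicate 2 and 0.29 without knockdown replicate 1.

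Of all 1296 Zscan4 counts, 1126 (86.9%) were assigned to Zscan4d and Zscan4-ps1, which had more unique windows than Zscan4a, Zscan4c or Zscan4f at each of the 3 window lengths. Their joint share was 78.0% and 91.5% in control libraries against 85.1% and 88.2% in the knockdowns. Zscan4-ps1 had 72 and 263 counts in control libraries against 62 and 150 in knockdown libraries, and its mean level per length (1.70 CPM per kb) was close to that of Zscan4d. Within a library the share of Zscan4d was 48.1% (95% Wilson interval 41.9% to 54.4%) and 33.9% (29.7% to 38.4%) in control libraries against 59.5% (53.2% to 65.5%) and 46.1% (41.0% to 51.3%) in the knockdowns. The Wilson intervals of the 2 controls did not overlap, nor did those of the 2 knockdowns. Zscan4-ps1 was the larger part of the family in control replicate 2. These intervals cover counting error only, since PCR copies are not independent molecules. Zscan4-ps2, 99.3% identical to Zscan4c over its transcript, had 0 counts in control libraries against 6 and 42 in knockdown libraries, and was too low to be tested. Whether the low counts of Zscan4c and Zscan4f reflect few transcripts or reads left out because they match several copies was not tested.

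**Figure D4:**
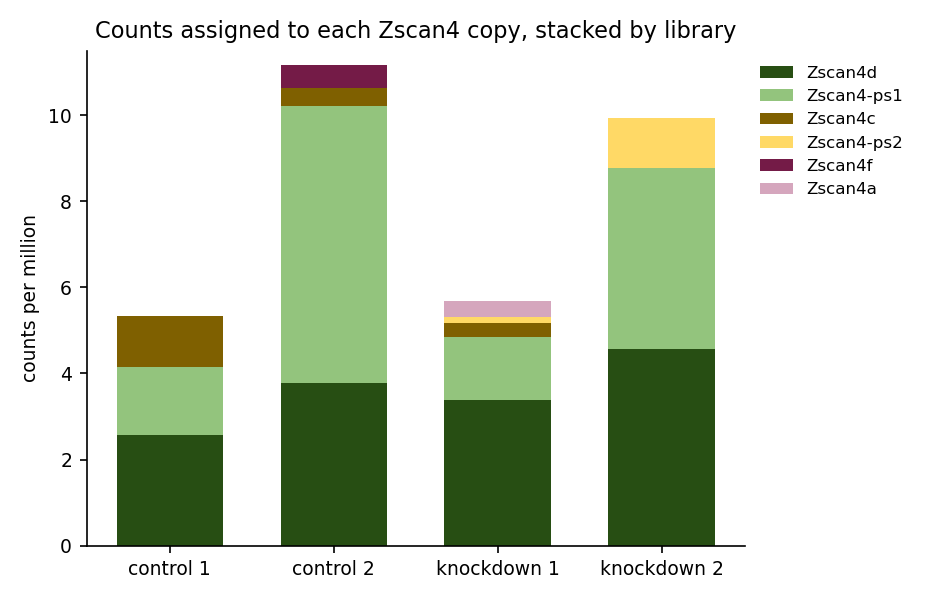
CPM assigned to each Zscan4 copy (stacked colours), by library. Zscan4d and Zscan4-ps1 make up 78.0% to 91.5% of each bar, and the whole bar is higher in control 2 and knockdown 2 than in control 1 and knockdown 1.

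Further copies of the member families near the members were found by sequence (at least 80% identity over at least 50% of the shorter transcript, within 500 kb). The Tcstv cluster on chromosome 13 held 7 such copies with 10 or more counts. Gm21818, 96.0% identical to Tcstv1 over 655 aligned bases, had 371 and 488 counts in control libraries against 363 and 220 in knockdown libraries, a mean of 9.73 CPM per kb over all 4 libraries. Its groups overlapped, and its log2 fold change was -0.43 (95% interval -1.35 to 0.50; adjusted p 0.934 by edgeR). BC147527 had 93 and 136 counts against 201 and 82. Gm20767 (146 and 0 against 27 and 62), D13Ertd608e (106 and 22 against 26 and 39), Gm21731 (36 and 14 against 20 and 20) and Gm21761 (45 and 15 against 2 and 22) had few counts, and AF067063 had 40 in knockdown replicate 1 alone. Of the copies with counts Tcstv1 and Tcstv3 had the highest levels per length in the cluster, and AF067061, 91.9% identical to Tcstv1, had 0 counts in all libraries.

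The gene nearest in sequence to Zfp352 on chromosome 4 was expressed although Zfp352 was not detected. Gm12633, annotated as a processed pseudogene from 90359622 to 90361326 on the minus strand, is 81.9% identical to Zfp352 over 1698 bases and lies 133920 bases from it. It was the only gene with counts within 500 kb of Zfp352, of 6 in the table there. It had 1605 and 1922 counts in control libraries against 2852 and 1772 in knockdown libraries, a mean of 29.2 CPM per kb, close to the level of Tcstv1. Both knockdown libraries lay above both controls, as for 18% of all genes tested. The means were 41.2 ± 8.11 CPM in control libraries and 58.2 ± 12.4 CPM in knockdown libraries (SD, n = 2). The log2 fold change was 0.52 (95% interval 0.08 to 0.96), with an unadjusted p of 0.0249 and an adjusted p of 0.835 by edgeR, so it did not pass. At an unadjusted p under 0.05 by edgeR, 2.94% of all genes tested were higher in the knockdown.

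**Figure D5:**
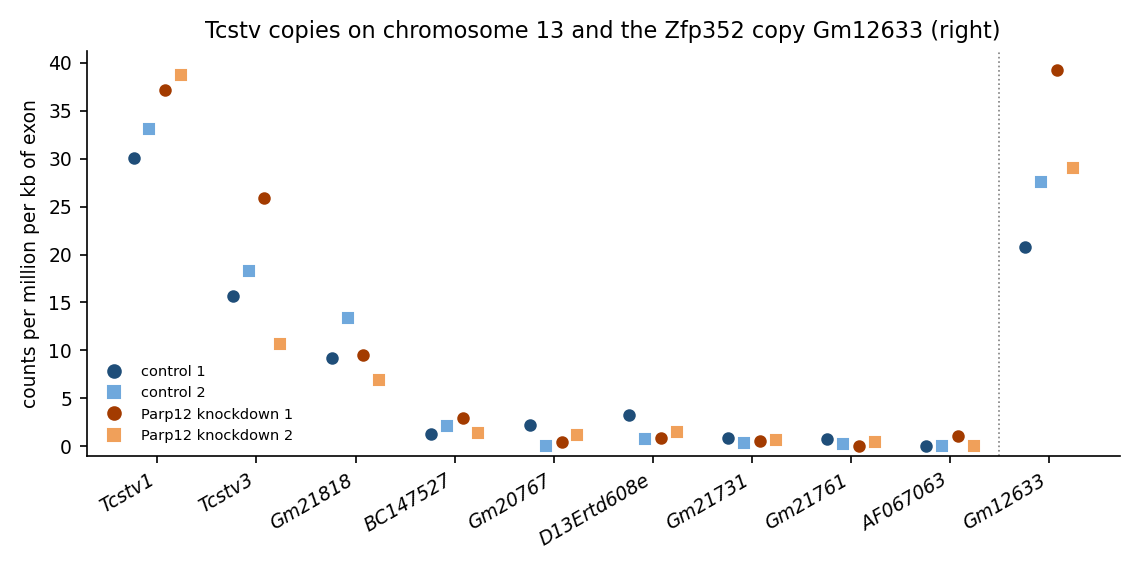
Level of the Tcstv copies of chromosome 13 with counts and of Gm12633 (right of the dotted line) in CPM per kb of exon, with circles for replicate 1 and squares for replicate 2 (blue control, orange Parp12 knockdown). Tcstv1, Tcstv3, Gm21818 and Gm12633 stand clear of the other copies, and the 2 knockdown points of Tcstv3 lie above and below its controls.

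Other genes of the 2-cell burst ranged from undetected to well expressed. Of 37 further genes listed, 34 were in the table and 19 of these had 0 counts in all 4 libraries, among them all 5 Tdpoz genes, Spz1, and Gm2016, Gm4027, Gm8300 and Gm5662, copies related to the translation factor Eif1a. Over all 55453 genes, 34095 had 0 counts. Duxf3, the gene of the transcription factor DUX that switches on 2-cell genes, had 20 counts in knockdown replicate 2 and 0 elsewhere. Apart from Zscan4-ps1, the share of unique windows was not computed for the genes of this list. The treatment of reads that align to several places was not known, so a count of 0 need not mean absent RNA, above all among similar copies. The list passed the filter with 9 genes, 0 of them called (background 0.0063%), 4 above 0 and 5 below, with a median log2 fold change of -0.01. Arg2, a mitochondrial arginase (86.3 CPM per kb), Sp110, a nuclear body protein (34.3), and Zscan4-ps1 had its highest levels per length. The smallest p was that of Hspa1b, a heat shock gene known to be among the first transcribed in the embryo, with 238 and 192 counts in control libraries and 169 and 71 in the knockdowns (adjusted p 0.916 by edgeR).

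RNAs for regulators of the 2-cell genes ranged widely, from Kdm5b at 0.230 CPM per kb upward among the activators. Among 13 genes listed as promoting 2-cell transcription, all tested, 0 were called (background 0.0063%). Of their log2 fold changes 7 were above 0 and 6 below, with a median of 0.00. Dppa2, a DNA-binding protein upstream of Dux, had 172.7 ± 6.79 CPM in control libraries and 184.1 ± 10.2 CPM in knockdown libraries (SD, n = 2). Its partner Dppa4 had 504 and 859 counts in control libraries against 797 and 739 in knockdown libraries. Nfyc, a subunit of the CCAAT-binding factor NF-Y, and Yap1, a maternal co-activator, were with Dppa2 the highest of the list per length, at 77.7 CPM per kb for Nfyc, 68.2 for Yap1 and 72.9 for Dppa2. Zfp42, which had the list's smallest p, encodes the zinc finger protein REX1, known also for repressing endogenous retroviruses, so its place among the activators is uncertain. It had 89 and 60 counts in control libraries and 367 and 77 in the knockdowns (adjusted p 0.835 by edgeR).

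Among 28 genes listed as holding 2-cell genes back, all tested, 0 were called (background 0.0063%). Of their log2 fold changes 15 were above 0 and 13 below, with a median of 0.05. The interval of 24 of the 28 lay within 2-fold either way, against 46.7% of all genes tested. These shares were not matched for expression level, and genes with few counts have wider intervals. At an unadjusted p under 0.05 by edgeR 2 were higher (background 2.94%) and 1 was lower (background 2.57%). The highest per length were Dnmt1, the maintenance DNA methyltransferase, at 639.2 CPM per kb, Trim28, the co-repressor of KRAB zinc finger proteins, at 94.5, and Chaf1a, of the chromatin assembly factor CAF-1, at 62.3. The smallest p was that of Mga, a subunit of a non-canonical Polycomb complex, with 72.5 ± 1.76 CPM in control libraries and 92.8 ± 5.04 CPM in knockdown libraries (SD, n = 2; adjusted p 0.835 by edgeR).

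The genes whose pattern over the 4 libraries lay nearest to that of Tcstv1 were Mdc1, Ddx5 and Ubap1, out of 9870 tested genes with a mean of at least 5 CPM. Likeness was the Euclidean distance between log2 CPM values centred on each gene's mean, and was 0.0110, 0.0152 and 0.0350 for these genes, beside a median of 0.437 over all of them. Ddx5 encodes an RNA helicase and Ubap1 a part of an endosomal sorting complex. Mdc1, a mediator of the DNA damage checkpoint, had 90.6 and 99.8 CPM in control libraries and 112.9 and 116.6 CPM in the knockdowns. Tcstv3 lay at 0.994 from Tcstv1, farther than the median gene. With 4 libraries this describes their order and spacing only.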

How the data were processed

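Raw read counts per gene in 4 libraries were used as the authors deposited them. The build mm10 and the tools featureCounts 2.0.0, STAR 2.7.5b, Trim Galore 0.6.4 and DESeq2 1.28.1 are listed, without roles, in the submitters' processing notes. Strand setting, read length and the counting of multi-mapped reads are not given there. Rows without a gene name numbered 0, as did columns of other samples. The 7 genes and all lists were chosen with earlier results of these data known.

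Counts were fitted over the whole table with edgeR 4.0.16 in R 4.3.3: filterByExpr defaults (a count of 10, a total of 15; 15868 genes kept), TMM, estimateDisp, and the robust quasi-likelihood fit with group as the only term, two-sided, with Benjamini-Hochberg adjustment at 0.05. Intervals are 95%. Family sums replaced their rows in a second fit. Alternatives were other scalings and filters, leaving out each library, a block for replicate number, limma-voom (limma 3.58.1), DESeq2 1.42.0, family sums and, added after seeing the data, edgeR's legacy quasi-likelihood fit. The fits were tested on simulated data. Copies were found with blastn 2.17.0 and aligned with mafft 7.526 in GENCODE vM21 transcripts, and all 7 ranges matched that annotation. An exact permutation test over 2 against 2 libraries cannot go below 0.333, so none is given. The text names the 7 genes, Parp12, copies near them with 10 or more counts, the smallest p and the 3 highest levels per length in the lists of other 2-cell genes, activators and repressors, Dppa2, Dppa4 and the 3 genes most like Tcstv1; Duxf3, AF067061, Zscan4b, Zscan4e, Zscan4-ps3, Kdm5b, the cell type markers and other genes at 0 were named after their values were seen.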

Additional observations from a re-analysis of the deposited data

How the results depend on the processing

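No member was called under any of the 14 alternatives run, which are those named in the processing summary. Over the 4 tested members and the 2 family sums, 74 of 77 recomputed values kept their sign and stayed without a call, and 3 changed sign, all when a library was left out. Tcstv3 was -0.67 without knockdown replicate 1, within a leave-one-out range of -0.67 to 0.61. The Zscan4 family sum was 0.51 without control replicate 2 and 0.29 without knockdown replicate 1, within a range of -0.54 to 0.51. The cause of these shifts was not tested. The ranges were 0.21 to 0.32 for Tcstv1, 0.07 to 0.60 for Zscan4d, 0.12 to 0.33 for the Tcstv sum and -8.05 to -1.19 for Zscan4c, whose lowest value is set by a group at 0 counts and is no bound. Zscan4c could not be fitted under the filter of 1 CPM, which it did not pass. Calls over all genes, 1 in the report, numbered 8 when both libraries of a group had to reach 1 CPM, 305 with DESeq2, 0 with limma-voom (747 at an unadjusted p under 0.05) and 1 to 2 when a library was left out. With the replicate number as a block, which the labels do not say marks a shared source and whose same-numbered deviations correlated at 0.02, 1 gene and 0 members were called. Zscan4 members had 0 to 164 counts per library, which limits the precision of their values.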
